A study of Mus musculus with 10 samples.

Results

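The set described here comprises the 10 genes Smad1, Smad2, Smad3, Smad4, Smad5, Smad6, Smad7, Ski, Skil and Tgif1, which encode Smad proteins and nuclear proteins that hold Smads back. They were grouped by name for their function, by a rule that uses no measured value but was written with earlier results of these data known, and are 10 of 21938 protein-coding mouse genes in the annotation used. What was measured is where the DNA-binding protein RBPJ sat on chromatin near them. Chromatin immunoprecipitation sequencing (ChIP-seq) had been carried out on mouse RD1 cells, described as brain pericytes and kept in pericyte medium on dishes coated with collagen I. No treatment was given, and all samples shared these conditions. The series held 10 samples in 5 groups of 2: input chromatin and immunoprecipitates of histone H3, H3K4me1, H3K4me3 and RBPJ. Only the 2 RBPJ samples were analysed here. Both RBPJ files held the same 11094 intervals, a consensus of both replicates, so they count as 1 list and no spread between replicates can be given. The list holds positions without scores, so a peak is either present or absent, its strength and the sequencing depth are unknown, and whether these cultured cells express pericyte markers cannot be read from it.

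Receptor-activated Smads carry signals of the TGFβ family from the cell surface to the nucleus. Smad2 and Smad3 mainly serve TGFβ and activin receptors, Smad1 and Smad5 mainly serve BMP receptors, and each joins the common partner Smad4 before binding DNA. Smad6 and Smad7 block this relay at the receptors and form negative feedback, while Ski, Skil (also called SnoN) and Tgif1 recruit repressor complexes to Smads on DNA. RBPJ is the DNA-binding protein through which Notch receptors act, and its core motif reads TGGGAA, often within GTGGGAA. In pericytes, the mural cells of capillaries, TGFβ and Notch signals have both been linked to maturation and to contact with the endothelium. For brain pericytes after birth, the authors propose that RBPJ acts independently of Notch.

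Stretches of the peaks nearest the starts of 7 members are shown first, as examples of the DNA under these peaks. They were read from the RefSeq copy of GRCm38, 5′ to 3′ on the strand of the gene. Capitals mark TGGGAA. The first 5 are the 100 bases just upstream of the gene start and the 6th is an intronic stretch just inside Tgif1, all within the promoter peak, and none of these 6 stretches held TGGGAA on either strand. The 7th is the central 200 bases of the peak in Ski, where the motif stood at 2 positions. The windows differ in length and place, so they are no comparison between genes, and 6 of the 10 promoter peaks of the set held TGGGAA elsewhere in the interval.
Smad1 (chr8:79399519-79399618, reverse strand): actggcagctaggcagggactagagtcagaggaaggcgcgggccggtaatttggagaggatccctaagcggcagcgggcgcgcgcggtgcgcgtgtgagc
Smad5 (chr13:56702910-56703009, forward strand): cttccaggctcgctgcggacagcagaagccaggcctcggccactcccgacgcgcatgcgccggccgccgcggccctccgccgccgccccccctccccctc
Smad3 (chr9:63757995-63758094, reverse strand): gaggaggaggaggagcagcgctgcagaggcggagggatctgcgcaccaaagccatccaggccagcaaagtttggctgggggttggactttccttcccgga
Smad6 (chr9:64022060-64022159, reverse strand): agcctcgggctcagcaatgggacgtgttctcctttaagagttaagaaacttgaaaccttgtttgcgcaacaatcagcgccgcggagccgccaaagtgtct
Skil (chr3:31094958-31095057, forward strand): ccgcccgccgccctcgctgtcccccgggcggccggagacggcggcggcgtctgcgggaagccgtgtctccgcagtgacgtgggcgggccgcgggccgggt
Tgif1 (chr17:70853015-70853114, reverse strand): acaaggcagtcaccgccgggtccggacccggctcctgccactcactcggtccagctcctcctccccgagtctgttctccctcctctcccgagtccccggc
Ski (chr4:155173548-155173747, reverse strand): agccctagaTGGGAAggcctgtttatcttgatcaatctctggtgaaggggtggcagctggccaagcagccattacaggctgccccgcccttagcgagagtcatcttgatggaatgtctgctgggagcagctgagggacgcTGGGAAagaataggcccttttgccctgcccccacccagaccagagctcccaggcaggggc

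Longer forms of the RBPJ motif and motifs of other factors stood in single member peaks, shown next as examples. The strand printed is given for each. In the first 5 sequences capitals mark GTGGGAA and, in Smad3, also TTCCCA, which is TGGGAA on the other strand. In the next 2, the centres of 2 peaks downstream of Tgif1, capitals mark TGGGAA or TTCCCA together with TGANTCA, the AP-1 motif. In the last, capitals mark GTCTAGAC, a palindrome of the Smad binding element, which spanned the annotated start of Smad6. Of the 81 bases at the fourth site, 47 were marked as repeat in the genome, as were 89 of the 200 bases of the sixth.
Smad5 at +305 (chr13:56703436-56703462, forward strand): gcgcttatcgGTGGGAAttacactccg
Smad3 at +55769 (chr9:63702642-63702722, forward strand): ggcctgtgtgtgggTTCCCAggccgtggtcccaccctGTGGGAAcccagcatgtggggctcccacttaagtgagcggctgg
Smad6 at -23348 (chr9:64045407-64045487, forward strand): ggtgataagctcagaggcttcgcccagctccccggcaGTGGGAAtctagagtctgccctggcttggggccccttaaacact
Tgif1 at +98946 (chr17:70754660-70754740, reverse strand): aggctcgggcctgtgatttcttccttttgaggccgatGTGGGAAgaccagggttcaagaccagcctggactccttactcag
Tgif1 at +115595 (chr17:70737517-70737597, reverse strand): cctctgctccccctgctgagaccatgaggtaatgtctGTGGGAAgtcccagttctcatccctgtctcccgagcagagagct
Tgif1 at +115595, centre (chr17:70737851-70738050, reverse strand): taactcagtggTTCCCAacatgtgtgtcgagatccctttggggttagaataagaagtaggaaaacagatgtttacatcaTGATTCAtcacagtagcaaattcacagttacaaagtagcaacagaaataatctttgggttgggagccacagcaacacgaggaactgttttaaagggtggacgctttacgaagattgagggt
Tgif1 at +111689, centre (chr17:70741757-70741956, reverse strand): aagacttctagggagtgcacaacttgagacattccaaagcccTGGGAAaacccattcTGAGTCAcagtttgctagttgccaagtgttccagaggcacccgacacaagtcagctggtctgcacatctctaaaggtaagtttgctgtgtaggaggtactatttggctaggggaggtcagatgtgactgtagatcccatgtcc
Smad6 start (chr9:64022047-64022073, reverse strand): ccgccaaagtGTCTAGACtggcatatg

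RBPJ peaks lay in the reach of all 10 members and at the promoters of 9. The reach of a gene was its body plus a regulatory domain built by the default rule of the GREAT tool, from 5 kb upstream to 1 kb downstream of the gene start and then outwards until the next gene's domain or 1 Mb. A promoter peak was one whose centre lay within 1 kb of a coding transcript start of the gene. Over all 21938 coding genes, 46.8% had at least 1 peak in reach and 27.4% had a promoter peak. The members are long-domain, GC-rich genes, and both features go with peaks. Their median domain spanned 342 kb against 89.9 kb over all genes, and all 10 had domains of at least 140 kb, a class in which 59.3% of 7990 genes had a peak. The 300 bases around their starts had a median GC content of 73.8% (58.3 to 82.0%) against 58.0% over all genes. Of 9808 genes with at least 60% GC there, a class that held 9 of the members, 43.8% had a promoter peak. The floors of 140 kb and 60%, and further on the floor of 6 peaks, the run of 5 peaks within 50 kb and the width floor for GTCTAGAC, were set after the members' values were seen.

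The peaks were unevenly spread over the 10 genes. Smad3 held 9, Tgif1 held 8, Smad6 and Smad7 held 7 each and Smad2 held 6, so 5 members had at least 6 peaks, a number reached by 1.30% of all coding genes and by 3.23% of those with domains of at least 140 kb. Skil held 2, and Smad1, Smad4, Smad5 and Ski held 1 each. The median was 4 peaks per member against 0 over all genes. Long domains collect more peaks, so the number that the peak density of the chromosome would give for the same length is shown beside each count. Smad3 had 9 against 2.22 by this measure, Smad6 had 7 against 1.86, and Smad7 had 7 against 2.61. Tgif1 with 8 against 6.0 and Smad2 with 6 against 3.98 lay nearer to the density of their chromosomes, in domains of 1020 and 1030 kb. Ski had 1 against 0.159, on a sparse chromosome, and Skil had 2 against 0.561, while Smad5 with 0.650 and Smad4 with 0.692 were near their 1 peak. Smad1 had 1 peak in 335 kb, against 1.62, while Smad6 had 7 in the like length of 349 kb.

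**Figure D1:**
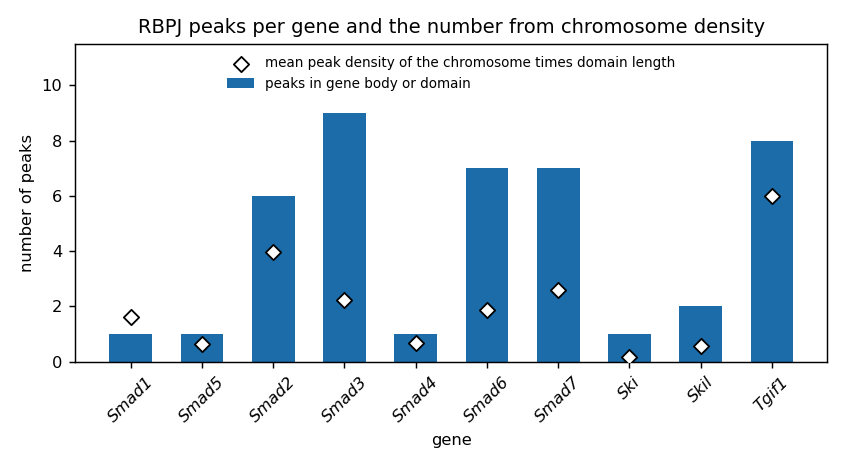
Number of RBPJ peaks in reach of each of the 10 members (bars) beside the number given by the peak density of the chromosome for the same length (diamonds). The bars of 9 members rise above their diamonds, by the most peaks at Smad3, Smad6 and Smad7, while that of Smad1, with 1 peak against 1.62, stays below it.

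The 10 counts added up to 43 assignments of 39 distinct peaks, because 4 peaks lay in the domains of both Smad3 and Smad6. A domain does not say which gene a peak acts on. Of the 39 peaks, 26 were also in the domain of a gene outside the set, and 9 were in that of 1 member alone. By 5′ gene ends a member was the nearest coding gene for 32 peaks and another gene for 7, and by the starts of all coding transcripts for 29 and 10. Promoter peaks made up 10 of the 39 (25.6%), against 49.5% of all peaks within 1 kb of a coding start. The other 29 stood 12.3 to 380 kb from the member's start, with a median of 110 kb, and 15 of them were beyond 100 kb. Introns held 20 of the 29, namely 5 in Smad3 and Ski themselves and 15 in the neighbouring genes Ctif, Dlgap1 and Zbtb7c, and 9 were intergenic.

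**Figure D2:**
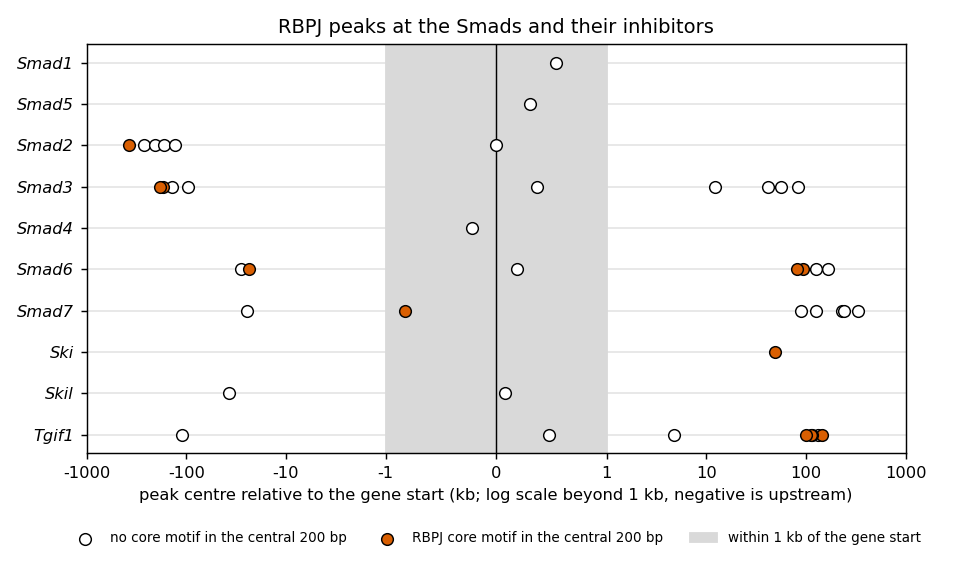
Position of every RBPJ peak assigned to each member, in kb from the gene start along the direction of transcription (log scale beyond 1 kb), with filled points where the RBPJ core motif stands in the central 200 bp. A promoter peak stands at the start in every row but that of Ski, and Smad2, Smad3, Smad6, Smad7 and Tgif1 carry assigned peaks beyond 100 kb.

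Among the receptor-activated Smads, the BMP-linked pair each had a promoter peak and no other. Smad1 (ENSMUSG00000031681), on the reverse strand of chromosome 8, had a peak of 1299 bp at chr8:79398331-79399629, centred in intron 1 at 538 bp inside the start. Its central 200 bases had 72.5% GC, and the whole peak held no TGGGAA. Smad5 (ENSMUSG00000021540), on the forward strand of chromosome 13, had a peak of 873 bp at chr13:56702879-56703751, centred 305 bp inside the start in untranslated sequence. Its centre was the richest in GC of all 39, at 82.5%, and TGGGAA occurred at 2 places in the peak outside the central 200 bp. The starts of 3 small annotated RNAs lay within 1 kb of this centre, so the peak cannot be given to Smad5 alone.

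Smad3 (ENSMUSG00000032402), a TGFβ-linked receptor Smad on the reverse strand of chromosome 9, had the most peaks of the set. A promoter peak of 1647 bp at chr9:63756802-63758448 was centred 369 bp inside the start, in a coding exon. A further 4 peaks lay in intron 1 over 72.9 kb, and none of them held TGGGAA in its central 200 bp. The nearest, at chr9:63743803-63747607, was the widest member peak with 3805 bp and held 4 TGGGAA and 4 AP-1 motifs outside its centre. The others were centred 41.7, 55.8 and 83.1 kb inside the gene and were 362, 1122 and 526 bp wide. Seen from the starts of shorter coding transcripts of Smad3, these 4 peaks were closer, between 4348 and 9744 bp. By 5′ gene ends alone, the 83.1 kb peak was nearer to Aagab, the next gene, at 72280 bp, than to Smad3.

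Smad6 (ENSMUSG00000036867), an inhibitory Smad that mainly restrains BMP signals, lies on the same strand with its start 264 kb from that of Smad3. Its promoter peak was 2749 bp wide, at chr9:64020495-64023243, centred 190 bp inside the start in a coding exon. It held 7 copies of GGCGCC, a GC-rich Smad motif, and the GTCTAGAC palindrome printed above. Upstream, a peak of 440 bp at chr9:64045188-64045627 was centred 23348 bp from the start and was the only member peak with GTGGGAA in its central 200 bp. Another of 669 bp, 28369 bp upstream, held 2 AP-1 motifs and lay within 1 kb of the start of the long non-coding RNA 1110036E04Rik.

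The interval between the 2 genes held the 4 shared peaks, over 87.5 kb. Their centres lay 96.9, 139, 170 and 184 kb upstream of Smad3 and 167, 126, 94.1 and 80.3 kb downstream of the start of Smad6, so the first was nearer to Smad3 and the other 3 to Smad6. They were 539, 367, 385 and 545 bp wide, against a median of 523 bp over all peaks away from coding starts. The last 2 held TGGGAA in the central 200 bp. Together Smad3 and Smad6 had 12 distinct peaks, on a chromosome with 5.33 peaks per Mb against a median of 4.84 over autosomes.

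**Figure D3:**
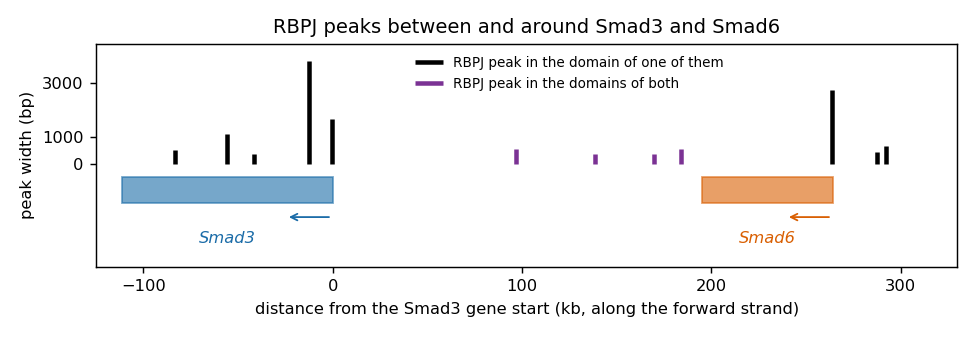
RBPJ peaks around Smad3 and Smad6, with position in kb from the Smad3 start on the x axis, peak width in bp on the y axis, gene bodies as boxes and the direction of transcription as arrows. The 2 widest peaks, of 3805 and 2749 bp, are in Smad3 intron 1 and at the Smad6 start, and the 4 peaks in both domains are at most 545 bp wide.

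The other 3 Smads share chromosome 18, on which members held 14 peaks. Smad2 (ENSMUSG00000024563), the second TGFβ-linked receptor Smad, had a promoter peak of 706 bp at chr18:76241222-76241927, centred 6 bp upstream of its start, with 73.0% GC and no TGGGAA. Its other 5 peaks all lay in introns of the upstream neighbour Zbtb7c, 130 to 380 kb away, over 251 kb. The farthest, at chr18:75861239-75861593, was the only one of the 5 with TGGGAA in its central 200 bp. The peak at chr18:76072185-76073163 held 5 TGGGAA, 1 of them within GTGGGAA, and a GTCTAGAC 35 bp from its centre. The 2 farthest peaks were nearer to the 5′ end of Zbtb7c than to that of Smad2, and all 5 were nearer to a coding transcript start of Zbtb7c.

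Smad4 (ENSMUSG00000024515), the common partner of receptor Smads, had a single peak of 605 bp at chr18:73703699-73704303, centred 221 bp upstream of its start with 69.0% GC. It held 1 TGGGAA, outside the central window.

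Smad7 (ENSMUSG00000025880), the inhibitory Smad that restrains TGFβ and BMP receptors, had the narrowest peak of the set at its promoter. This peak of 192 bp, at chr18:75366614-75366805, was centred 820 bp upstream of the start, and it was the only promoter peak with TGGGAA in the central 200 bp. The start of the non-coding transcript Gm20544 was also within 1 kb. A second peak, 24.7 kb upstream at chr18:75342222-75343393, held 5 GGCGCC and 1 GTGGGAA and reached 77.5% GC, the highest among the 29 non-promoter peaks. The other 5 peaks lay in introns of the downstream gene Ctif, over 242 kb, and were wide, at 1429 to 2348 bp, with no TGGGAA in the central 200 bp. In 4 of these 5 wide peaks TGGGAA stood elsewhere, at 2 to 5 places. The farthest was centred 1150 bp from the start of Ctif, and the 3 farthest were nearer to that start than to Smad7. The authors joined nearby calls into 1 interval, so the middle of a wide peak may lie away from the bound site.

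The 3 corepressors held 1, 2 and 8 peaks. Ski (ENSMUSG00000029050), on chromosome 4, was the member without a promoter peak, although its start had the highest GC content of the set at 82.0%. Its 1 peak, of 359 bp at chr4:155173469-155173827, lay 48944 bp inside the gene in intron 1 and held TGGGAA at 2 places in its central 200 bp, at 59.5% GC. Chromosome 4 was sparse in the whole list, with 158 peaks or 1.01 per Mb against the autosome median of 4.84. A promoter peak was present at 69 of its 1327 coding genes (5.20%), against 26.2 to 38.7% on 17 other autosomes. Chromosome 7, with 4.45% of 2023 genes, and chromosome X, with 6.22% of 948, were low as well. The part of this gap in the missing Ski promoter peak was not tested.

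Skil (ENSMUSG00000027660), the close relative of Ski on chromosome 3, had a promoter peak of 1245 bp at chr3:31094520-31095764, centred 84 bp inside the start. It had 78.0% GC, no TGGGAA and 6 GGCGCC. The second peak, of 329 bp at chr3:31057183-31057511, lay 37711 bp upstream in intergenic DNA with 38.5% GC, the lowest of the set, and matched none of the motifs searched. The nearest coding transcript start to it was one of Prkci, at 18897 bp.

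Tgif1 (ENSMUSG00000047407), a homeodomain corepressor on the reverse strand of chromosome 17, had 2 promoter peaks because its coding transcripts start at 8 positions. The first, of 454 bp at chr17:70852839-70853292, was centred 481 bp inside the gene start, and the second, of 2052 bp at chr17:70847759-70849810, lay 4762 bp inside and 860 bp from the start of a shorter transcript. A transcribed pseudogene, Gm9320, also started within 1 kb of the first. Downstream, 5 peaks stood within 45.8 kb in intron 8 of Dlgap1, at 98.9 to 144 kb from the start of Tgif1, and the nearest coding transcript start to each was one of Tgif1. Tgif1 was the only member with such a run of 5 non-promoter peaks within 50 kb, a setting that held 124 of the 5605 peaks away from coding starts (2.21%). Of these 5 peaks, 4 held TGGGAA and 3 held an AP-1 motif in the central 200 bp, and 2 held both. Over all peaks away from coding starts these shares were 35.3%, 17.7% and 7.51%. Both motifs together stood in the centre of 5.13% of all member peaks against 4.16% of the whole list. The peak at chr17:70753827-70755373 held 8 TGGGAA in 1547 bp (5.17 per kb), a count reached by 2.14% of all peaks away from coding starts. Those peaks had a median width of 523 bp, and peaks of like width were not compared. Narrower member peaks at Smad2, Ski and Smad7 had more TGGGAA per kb, up to 5.63. The start of the antisense RNA 5031415H12Rik lay within 1 kb of the centre of this Tgif1 peak. The last peak of Tgif1, of 228 bp at chr17:70963662-70963889, held no TGGGAA and was nearest to Myl12b.

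**Figure D4:**
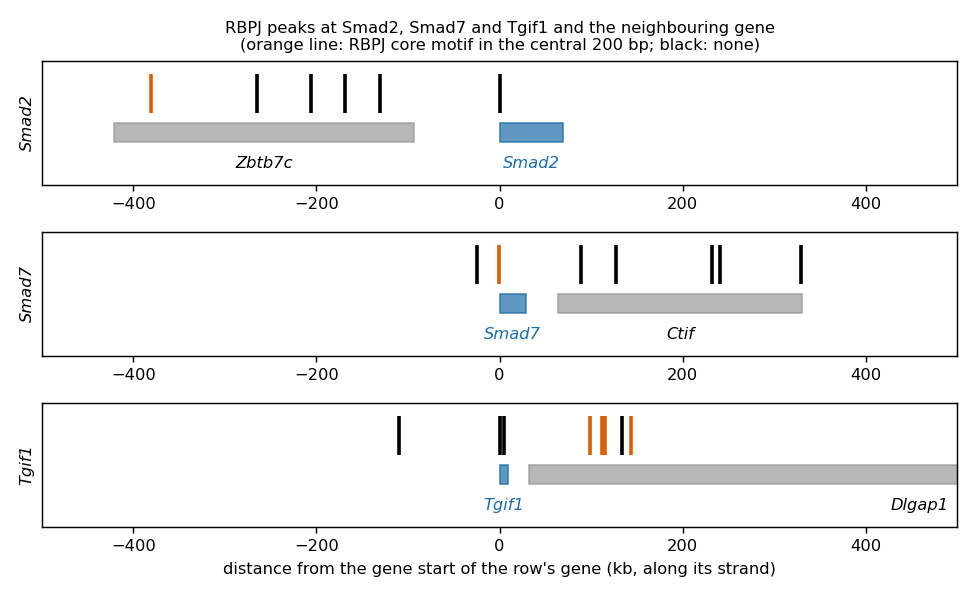
Peaks of Smad2, Smad7 and Tgif1 that lie inside the neighbouring genes Zbtb7c, Ctif and Dlgap1, by distance in kb from the member's start, with gene bodies as boxes and an orange line where the RBPJ core motif stands in the central 200 bp. Each neighbour holds 5 of the member's peaks, those in Dlgap1 within 45.8 kb and those in Ctif and Zbtb7c over 242 and 251 kb (the axis ends before the far end of Dlgap1).

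The neighbours that hold these peaks were also looked at for promoter peaks of their own. Zbtb7c, Ctif and Dlgap1 had no peak centred within 1 kb of a coding start, although the Smad7 peak centred 1150 bp from the start of Ctif ended 43 bp from it. None was so centred at Lctl next to Smad6 or at Morn1 next to Ski, whereas Aagab, Dym, Myl12b and Prkci, which also share peaks with members, had one. Zbtb7c, Ctif and Dlgap1 each had 6 peaks in reach in all.

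The share of member peaks with TGGGAA lay within counting error of the share over all peaks. The motif stood in the central 200 bp of 10 of the 39 member peaks (25.6%, exact 95% binomial interval 13.0 to 42.1%), against 25.8% of all 11094 peaks. Among promoter peaks it was in 1 of 10 (0.253 to 44.5%) against 16.2% of all 5489 peaks within 1 kb of a coding start. Among the others it was in 9 of 29 (31.0%, 15.3 to 50.8%) against 35.3% of 5605. Each interval holds the share over all peaks and covers counting error only. Taken over the whole peak, 64.1% of member peaks and 64.9% of all peaks held it. The longer GTGGGAA was in 8 member peaks (20.5%) against 29.3%. It was in 7 of the 29 away from promoters (24.1%) against 33.3% of all such peaks, and in 1 of the 10 promoter peaks against 25.4%. In the central 200 bp it was in 1 member peak (2.56%) against 9.30% of all peaks. A head-to-head pair of RBPJ motifs 14 to 17 bp apart was in 0 of 39 member peaks and in 1.55% of all. An approximate upper limit for the member share, 3 counts in 39, was 7.69%, which is not an exact interval like those above.

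The other motifs searched differed by position in the whole list, and the member counts are set beside those shares. TGANTCA, the AP-1 motif, was in the central 200 bp of 4 member peaks (10.3%) and of 10.4% of all peaks, and anywhere in 15 (38.5%) against 30.7%. Anywhere in the peak, it was in 14 of the 29 away from promoters (48.3%) against 44.4% of all such peaks, and in 1 of the 10 promoter peaks against 16.6%. GGCGCC was in 13 member peaks (33.3% against 33.5%), in 7 of the 10 at promoters (70.0%) against 55.1% of all peaks near coding starts and in 6 of the 29 others (20.7%) against 12.4%. In the central 200 bp it was in 7 member peaks (17.9%) against 11.4%, made up of 5 of the 10 at promoters against 19.9% and 2 of the 29 others against 3.07%. TGAGAA, a weaker form of the RBPJ motif, was in the central 200 bp of 3 member peaks (7.69%) against 14.4% of all, and anywhere in 16 (41.0%) against 45.3%. GTCTAGAC was in 3 member peaks (7.69%), of which that of Smad6 lay at the gene start. The others were assigned to Smad2 and Smad7 but lay 168941 bp from the first, inside Zbtb7c, and 329191 bp from the second, inside Ctif near its start. Over all peaks the share was 0.955%. Among peaks at least as wide as the narrowest of the 3, it was 3 of 17 in members (17.6%) and 79 of 4055 overall (1.95%). The member shares rest on 3 matches. This floor keeps all 3 by construction and drops only member peaks without GTCTAGAC, so the choice itself raises the member share. Over 27025 mouse genes in the RefSeq promoter table, which gives 300 bases at each start, mostly upstream, and holds 6 of the 10 members, 0.248% had GTCTAGAC, and of those members Smad6 had it. The same table had TGGGAA in 28.3% of promoters, among them those of Smad3 and Smad5. The starts in that table can differ from those used above. All motifs were read on both strands, GTGGGAA holds TGGGAA, and a match of letters is no proof of binding.

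**Figure D5:**
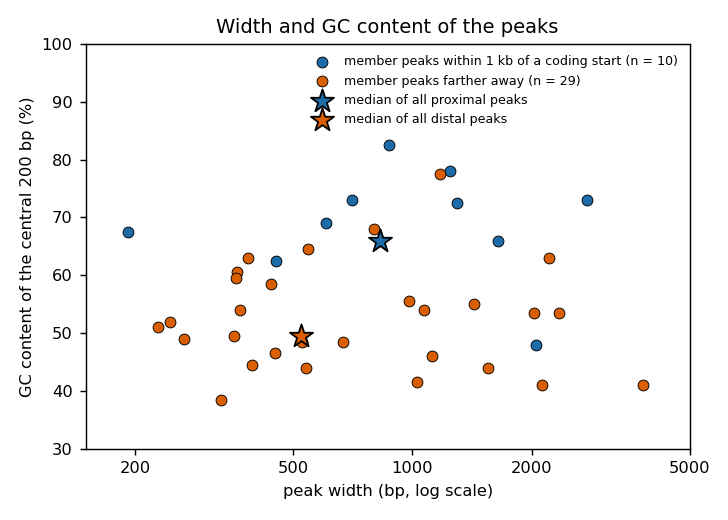
GC content of the central 200 bp in percent against peak width in bp on a log scale, for the 39 member peaks by position, with the medians over all peaks near to and away from coding starts. Member promoter peaks lie at 48.0 to 82.5% GC and the others mostly lower, with a median of 52.0%.

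In width and base composition the member peaks were close to the rest of the list. Their median width was 706 bp (192 to 3805 bp, quartiles 390 and 1364) against 690 bp over all peaks (quartiles 382 and 1419). Promoter peaks of members had a median of 1059 bp and 70.8% GC, against 829 bp and 66.0% over all peaks near coding starts. The other member peaks had 545 bp and 52.0%, against 523 bp and 49.5%. Median repeat content was 7.87% in member peaks and 6.90% over all, with 25.1% in a Smad7 peak and 21.5% in a peak shared by Smad3 and Smad6 as the highest.

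Outside the set, 21 further genes of the Smad pathway were listed by role. Of these, 15 had a peak in reach and 10 a promoter peak, beside 46.8% and 27.4% of all genes, with a median domain of 208 kb and a median of 1 peak. Among all genes with domains of at least 140 kb, 59.3% had a peak. Of all genes with at least 60% GC at the start, 43.8% had a promoter peak. Not all of the 21 genes fall in these classes. Promoter peaks stood at Smurf2, Nedd4l, Wwp1 and Trim33, ubiquitin ligases that act on Smads or their receptors, and at the deubiquitinases Usp4, Usp9x and Usp15. They also stood at Ppm1a, a phosphatase of receptor Smads, and at Pmepa1 and Bambi, inhibitors that act near the receptors. The Ppm1a peak lay 3359 bp inside the gene and that of Nedd4l at least 112377 bp inside, both near internal transcript starts. No peak was in reach of Smad9, the third BMP-linked receptor Smad, nor of Rnf111, Zfyve9, Zfyve16, Skor2 and Strap. Zfyve9, the anchor that brings receptor Smads to the receptors, and Wwp1 are on the sparse chromosome 4. Skor2, a corepressor related to Ski, had none in a domain of 682 kb, for which the density of its chromosome gives 2.63, although it starts next to Smad2. Skor1, from the same list, went the other way with 5 peaks in 384 kb against 2.05, none of them at its promoter.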

How the data were processed

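ChIP-seq of RBPJ, H3K4me1, H3K4me3 and H3, with input, was done in mouse RD1 cells. Groups and replicates were read from the sample titles. The 2 RBPJ samples were used and the other 8 were not analysed here. According to the study's methods and the submitters' notes, the authors mapped reads to GRCm38 with Bowtie, dropping reads with more than 3 matches, removed duplicates with Picard and SAMtools, and called peaks with MACS2 and PeakRanger. Calls up to 2 kb apart were joined, and an interval was retained where 3 or more calls from either caller and either replicate coincided and no ENCODE blacklist entry lay there. Each deposited row is an interval, given by its first and last position in bp, without a count, score or summit. The consensus list does not show which replicate or caller gave an interval.

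Starts were read as counted from 1. Coding genes and transcript starts came from GENCODE M21 and sequences from RefSeq GRCm38.p6, both of the build of the peaks. Domains, promoter peaks and motif windows were built with Python 3.11.15, pandas 2.3.3 and pysam 0.24.0, and intervals with scipy 1.17.1. The scripts were tested on simulated peaks. No test between groups was possible with 1 list, so counts stand beside the same over all genes or peaks. All members were named, and of the other pathway genes those with a promoter peak or no peak, with a few more chosen after their values were seen. The members, gene lists and alternatives were chosen with earlier results of these data known. Alternatives varied peak width, overlap, domain, promoter distance, motif window and replicate.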

Additional observations from a re-analysis of the deposited data

How the results depend on the processing

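The number of members with a peak was 9 with peaks of at least 500 bp or the basal domain only, 7 in gene bodies only and 10 under the other alternatives, and that of members with a promoter peak was 7 to 9. The shares over all genes given above belong to the main settings and were not worked out for these alternatives. The 39 member peaks fell to 25 with peaks of at least 500 bp, 24 with an extension of at most 100 kb, 12 in gene bodies and 9 in basal domains, and were 32 by nearest start and 40 by any overlap. The 10 peaks with TGGGAA in the central 200 bp became 3 in the central 100 bp (7.69%, against 15.4%), 25 over the whole peak, 1 for GTGGGAA (2.56%, against 9.30% of all peaks), 13 for TGGGAA or TGAGAA (33.3%, against 35.8%) and 3 of 25 peaks of at least 500 bp (12%, against 17.2%). The median width stayed at 706 bp without the widest 1% of peaks. Leaving out either RBPJ replicate gave 10 members, 39 peaks, 9 promoters, 10 peaks with TGGGAA and 706 bp each time, since both files hold 1 list, so this says nothing about reproducibility. No paired analysis was possible because the 1 consensus list has no groups to compare. Without scores, depth or summits, weak and strong sites cannot be told apart, and a site below the callers' threshold is listed the same way as an unbound one.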
